A study of Homo sapiens with 8 samples.

Results

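Long noncoding RNAs and the primary transcripts of microRNAs were examined in total RNA and in Ago2-immunoprecipitated (IP) RNA of KM-H2 cells, a Hodgkin lymphoma (HL) cell line. The transcripts were 8 genes chosen by name, namely the microRNA hosts MIR155HG (also called BIC), MIR17HG and DLEU2, the nuclear RNAs MALAT1 and NEAT1, and the snoRNA hosts GAS5, SNHG1 and SNHG3. Probes were named through the accession on the array and the RefSeq gene table. Of the 8 genes, 4 had a matched probe, out of 16557 genes named on the array. MIR155HG, GAS5 and SNHG1 had 1 probe each and MALAT1 had 4, which makes 7 probes. MIR17HG, DLEU2, NEAT1 and SNHG3 matched no probe by accession and were not analysed here.

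A microRNA is cut from a longer primary transcript by the nuclear enzyme Drosha and then by Dicer in the cytoplasm, and the mature strand is loaded into an Argonaute protein such as Ago2. Ago2 with its microRNA then binds target RNAs, so an RNA that is bound as a target is enriched when Ago2 is pulled down, whereas a primary transcript is normally processed in the nucleus. MIR155HG is the primary transcript of miR-155 and is abundant in germinal center B cells and in HL. GAS5 and SNHG1 are spliced noncoding RNAs that carry small nucleolar RNAs (snoRNAs), guides of RNA modification, in their introns, and MALAT1 is an unspliced RNA of nuclear speckles. The probes carry accessions of the long transcripts, and where in a transcript each probe lies was not established here.

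The microRNA made from MIR155HG is the one that the study set out to inhibit. Its mature strands are shown with the seed, bases 2 to 8, in capitals, because the seed is what guides a microRNA to its targets. The sequences and positions are those of RefSeq on GRCh38.p14, the plus strand of chromosome 21, at chr21:25573983-25574006 for the 5p strand and chr21:25574022-25574043 for the 3p strand. The array was designed on an older build, so no positions are given for its probes.
hsa-miR-155-5p: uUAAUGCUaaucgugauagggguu
hsa-miR-155-3p: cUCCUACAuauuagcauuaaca
Both strands lie within the MIR155HG locus, which holds 1 microRNA gene in that table. The 5p and the 3p strand have different seeds. In the same table the GAS5 locus holds 11 snoRNA genes and the SNHG1 locus 9, and MALAT1 overlaps an antisense RNA, TALAM1, and the small cytoplasmic RNA MASCRNA that is cut from its end.

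KM-H2 cells had been transduced with an empty pMSCV-PIG retroviral vector (EV) or with this vector holding a sponge for miR-155 (miR-155-sp). A sponge is a transcript with repeated binding sites that is meant to sequester the microRNA. The study reports that miR-155 targets were only mildly depleted from the IP fraction of HL cells with the sponge. It proposes that the sponge left part of the miR-155 unbound. GFP-positive cells of both populations had been sorted. From each population total RNA and Ago2-IP RNA were put on 2-color Agilent oligo arrays of the human transcriptome (44k format), which gives 4 RNA samples. Each sample was labelled once with Cy3 and once with Cy5, on 4 arrays that each held the total and the IP RNA of one population. As both labellings are of 1 RNA, each group is 1 sample, so no test was possible and all differences are descriptions. The only spread at hand is the technical one between labellings. It holds no variation between cultures or immunoprecipitations, so it is not the full error of a difference. Each array held one population, so array and sponge cannot be told apart in a sponge change, whereas IP/T was measured within arrays in both dye orientations. An immunoprecipitation with a control antibody was not analysed here. In bulk RNA, fewer cells with a transcript and less of it per cell cannot be told apart.

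Signals were quantile-normalized over the 8 channels on the log2 scale and are given as such. A log2 signal of one probe cannot be set against that of another probe, and only ratios of a probe to itself are compared. Between 58.9% and 61.9% of all gene spots passed background in the Cy3 channels, but between 38.8% and 43.4% in the Cy5 channels, and no gene spot was saturated. Probes well above background in at least 4 of 8 channels and within 2-fold between labellings in each sample were retained, 17912 in all. The HL genes TNFRSF8 (CD30), FUT4 (CD15), CCL17, CD40, IRF4, FSCN1 and CD74 passed background in each of the 8 channels. The B-cell gene MS4A1 (CD20), often lost in HL, was so in 1 channel. Of the other cells' markers, the probes of CD3E were well above background in 0 and 4 channels and that of CD14 in 6.

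Of the 7 probes of the examined transcripts, 6 were retained. All 8 channels were well above background for the probes of MIR155HG, GAS5 and SNHG1 and for the MALAT1 probe A_24_P829261. The MALAT1 probes A_23_P21143 and A_24_P873659 passed in the 4 Cy3 channels alone, thus in 1 of 2 labellings of each sample. The MALAT1 probe A_24_P497244 was not well above background in any channel, with log2 signals between 3.14 and 3.55, and no ratio is given for it.

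**Figure D1:**
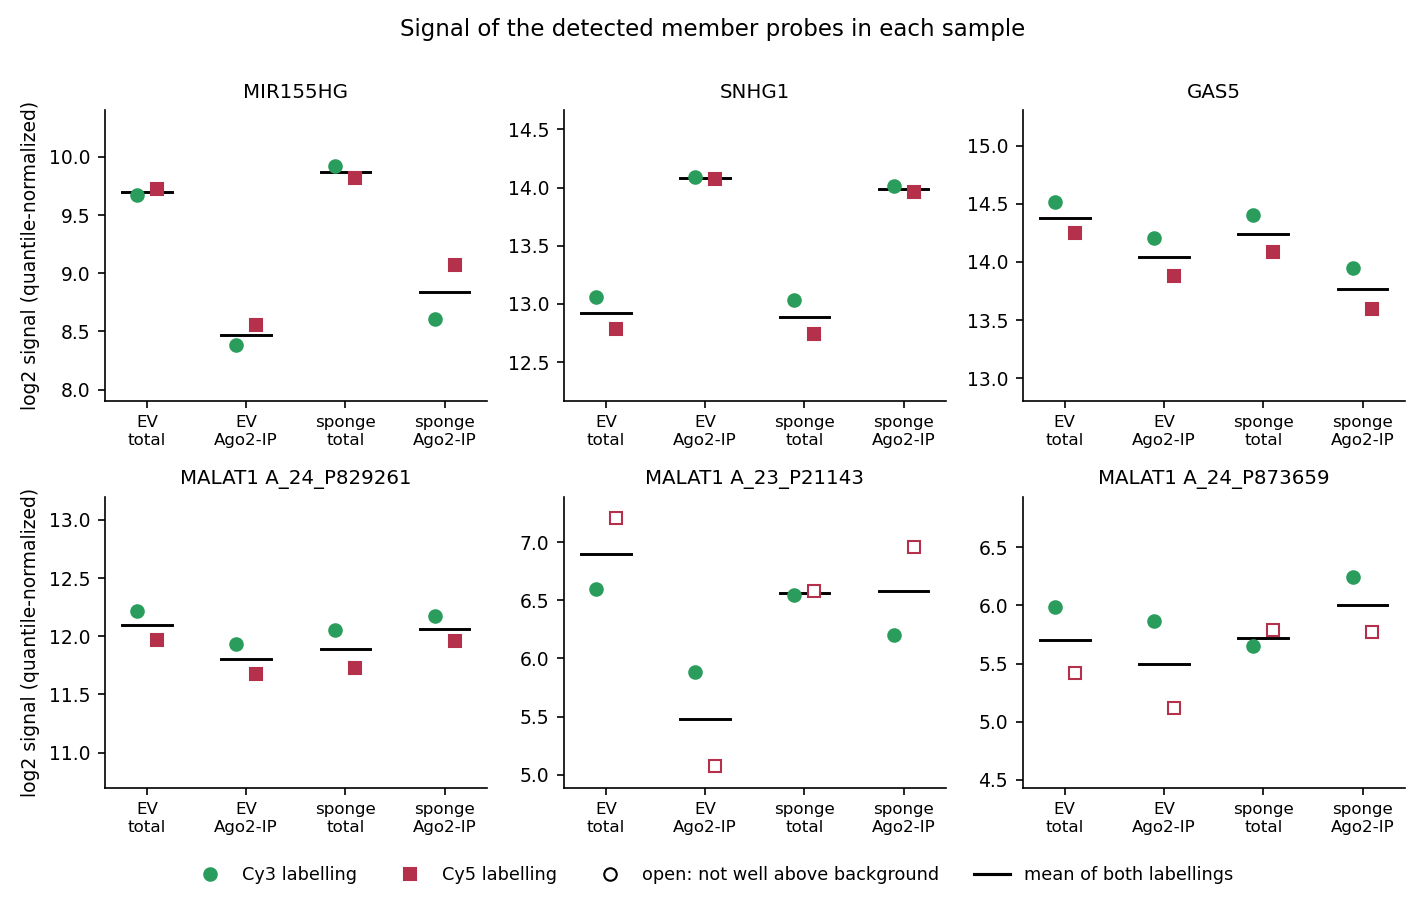
Quantile-normalized log2 signal (y axis, each panel spanning the same range of log2 units) of the 6 retained probes in EV and sponge total RNA and Ago2-IP RNA, with the Cy3 labelling as a circle, the Cy5 labelling as a square, open symbols where the signal was not well above background and a line at the mean. MIR155HG lay lower in both IP samples than in both total samples, SNHG1 lay higher, and the Cy5 signals of 2 MALAT1 probes were not well above background in any sample.

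The first comparison asks which of these transcripts were enriched with Ago2 in EV cells, with IP/T, the signal in IP RNA over that in total RNA, of at least 2 as the study's mark of enrichment. SNHG1 alone reached it, and MIR155HG and a dim MALAT1 probe lay at or below 0.5, both nearer to 1 under another background correction given with each. The other 3 probes, of GAS5 and MALAT1, had IP/T between 0.788 and 0.867. Thus 1 of 6 probes reached an IP/T of 2 or more, against a background of 14.8% of the 17912 retained probes, and 2 of 6 stood at or below 0.5, against 12.9%. With 6 probes of 4 genes these counts describe the probes and do not set them apart. IP/T was below 1 for 5 of the 6 probes, as for 60.7% of all retained probes, and the median log2 IP/T was -0.32 against -0.24 over all retained probes.

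MIR155HG, the primary transcript of miR-155, was depleted from the IP fraction of both populations. Its log2 signal in EV total RNA was 9.67 in the Cy3 labelling and 9.73 in the Cy5 labelling, and in EV IP RNA it was 8.38 and 8.55. In sponge total RNA the log2 signals were 9.92 and 9.81, and in sponge IP RNA 8.61 and 9.07. All 4 total RNA signals lay above all 4 IP signals. IP/T in EV cells was thus 0.426, with 0.460 when the IP RNA carried Cy5 and 0.394 when it carried Cy3. In sponge cells IP/T was 0.491, with 0.556 and 0.433 in the same order. The EV value stood at the 6.88th percentile of all retained probes and the sponge value at the 13.05th. Normexp background correction brought IP/T closer to 1 in both populations, to log2 values as high as -0.50 in EV and -0.42 in sponge cells, so the direction was kept but not the distance from 1.

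Between populations MIR155HG differed by 1.12-fold in total RNA and 1.29-fold in IP RNA. In total RNA the sponge cells were higher by 0.17 on the log2 scale, by 0.25 in the Cy3 and 0.09 in the Cy5 labelling. In IP RNA they were higher by 0.37, by 0.22 in Cy3 and 0.52 in Cy5. Both fractions were thus higher in both labellings, by amounts that differed between dyes. The resulting log2 change of IP/T was 0.20, with 0.27 in one dye orientation and 0.13 in the other. By dye, however, it was -0.03 from the Cy3 labellings alone and 0.43 from the Cy5 labellings alone. The labellings thus disagreed on its sign, and the change of IP/T was not larger than the spread between them.

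SNHG1, a host of snoRNAs whose spliced RNA has little coding capacity, was the transcript that was enriched. Its log2 signal in EV total RNA was 13.06 in Cy3 and 12.78 in Cy5, and in EV IP RNA 14.09 and 14.08. In sponge total RNA it was 13.03 and 12.75, and in sponge IP RNA 14.01 and 13.96. The 4 IP signals lay above the 4 total signals with no overlap. In EV cells IP/T was 2.23, with 2.02 and 2.47 for IP RNA in Cy5 and in Cy3, at the 87.4th percentile of retained probes. In sponge cells it was 2.14, with 1.90 and 2.40, at the 85.8th percentile. Sponge minus EV cells, the log2 change of IP/T was -0.06, with -0.09 and -0.04 in the dye orientations, that of total RNA -0.03 and that of IP RNA -0.10. Enrichment of SNHG1 was thus nearly the same in both populations.

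GAS5, a snoRNA host whose spliced RNA is degraded by the decay pathway coupled to translation, lay near the middle of all probes. Its log2 signal in EV total RNA was 14.52 in Cy3 and 14.25 in Cy5, and in EV IP RNA 14.20 and 13.87. In sponge total RNA it was 14.40 and 14.08, and in sponge IP RNA 13.94 and 13.59. Within each sample the Cy5 signal was the lower, and within each population both IP signals were below both total signals. In EV cells IP/T was 0.788, with 0.640 and 0.970 in the dye orientations, and in sponge cells 0.720, with 0.571 and 0.909. These stood at the 44.7th and the 38.8th percentiles. Sponge cells had slightly less GAS5 signal than EV cells in both fractions and both dyes. In sponge cells GAS5 was lower in total RNA by a log2 difference of -0.14, with -0.12 in Cy3 and -0.16 in Cy5, and in IP RNA by -0.27, with -0.26 and -0.28. The log2 change of IP/T was -0.13, with -0.17 and -0.09 in the dye orientations. The direction was shared by both labellings, and the size was below the median absolute change of 0.17 over all retained probes.

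GAS5 and SNHG1 thus stood on opposite sides of 1, although both are spliced hosts of snoRNAs. The ranges of their IP/T over the dye orientations, 0.640 to 0.970 and 2.02 to 2.47 in EV cells, did not overlap. A snoRNA within SNHG1, SNORD22, had a probe of its own, A_24_P564824, which was well above background in 2 of 8 channels and was not retained.

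**Figure D2:**
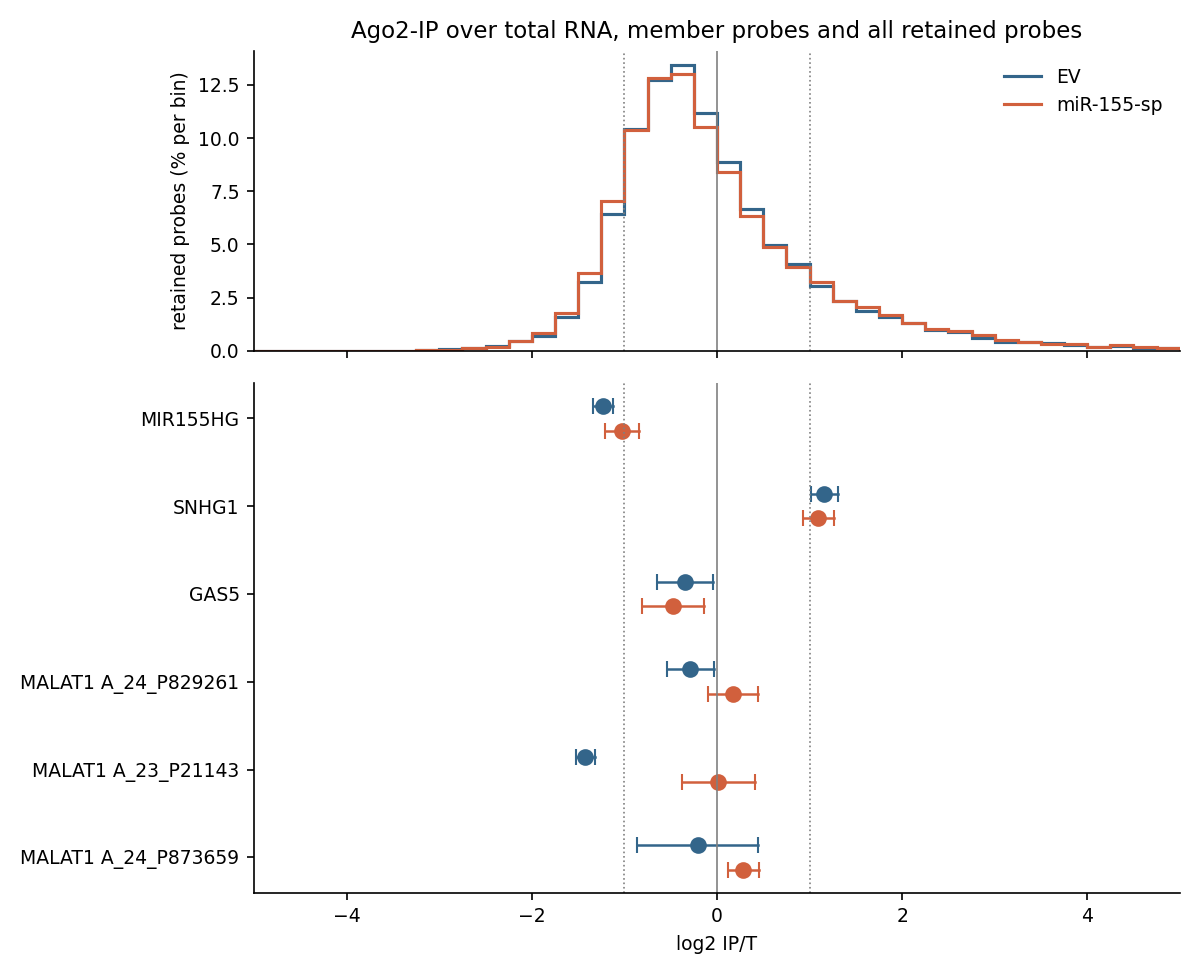
Log2 IP/T (x axis) in EV and miR-155-sp cells, above as the percentage of the 17912 retained probes per bin of 0.25 log2 units and below for each of the 6 retained probes, with a point at the mean and a bar between the 2 dye orientations. Dotted lines mark IP/T of 0.5 and 2, between which GAS5 and the MALAT1 probe A_24_P829261 lay in both populations.

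In sponge cells 1 of 6 probes reached an IP/T of 2, again that of SNHG1, against 15.6% of all retained probes. At or below 0.5 there was 1 of 6, that of MIR155HG, against 14.1%. The probe that had left this class was the dim MALAT1 probe A_23_P21143. The median log2 IP/T of the 6 probes was 0.09 in sponge cells, against -0.26 over all retained probes. This median was set by MALAT1 probes, the dim A_23_P21143 at 0.02 and A_24_P829261 at 0.17. It thus does not describe the other transcripts.

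MALAT1, the abundant RNA of nuclear speckles, was the transcript with the largest sponge change, and its probe that was detected in every channel is described first. The log2 signal of A_24_P829261 in EV total RNA was 12.22 in Cy3 and 11.97 in Cy5, and in EV IP RNA 11.93 and 11.68. In sponge total RNA it was 12.05 and 11.72, and in sponge IP RNA 12.17 and 11.95. Within each dye the IP signal was below the total signal in EV cells and above it in sponge cells. In EV cells IP/T was 0.818, with 0.686 and 0.975 for IP RNA in Cy5 and in Cy3, and in sponge cells 1.13, with 0.933 and 1.36. The ranges over dye orientations overlapped between populations, since the orientation itself moved IP/T.

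Within a dye orientation the change was steadier. The log2 change of IP/T for A_24_P829261 was 0.46, a 1.38-fold difference, with 0.44 for IP RNA in Cy5 and 0.48 for IP RNA in Cy3. From the Cy3 labellings alone it was 0.40 and from the Cy5 labellings alone 0.53. Total and IP RNA moved in opposite directions. The change was made up of a total RNA signal that was lower in sponge cells by a log2 difference of -0.21, with -0.16 in Cy3 and -0.25 in Cy5, and an IP signal that was higher by 0.26, with 0.24 and 0.28. The change of IP/T stood at the 93.0th percentile of all retained probes and at the 96.4th of the 13432 of them that passed background in every channel. Its lowest and highest values over all processing settings were 0.36 and 0.53. With 1 sample in each group, a difference between the cultures, the immunoprecipitations or the arrays cannot be told apart from the sponge.

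The dimmer MALAT1 probes went the same way in the mean with a wide spread. For A_23_P21143 the log2 signals in EV total RNA were 6.60 and 7.20 in Cy3 and Cy5, and in EV IP RNA 5.89 and 5.07. In sponge total RNA they were 6.54 and 6.58, and in sponge IP RNA 6.20 and 6.96. The Cy5 signals, none of which was well above background, carried most of the difference. In EV cells IP/T was 0.373, with 0.348 and 0.401, and in sponge cells 1.01, with 1.33 and 0.768. The log2 change of IP/T was 1.44, a 2.71-fold difference, with 1.94 and 0.94 in the dye orientations. From the Cy3 labellings, all well above background, it was 0.37, and from the Cy5 labellings it was 2.51. With normexp background correction it was 0.09 with loess and 0.05 with quantile normalization, so the size of the change for this probe rests on the setting.

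For A_24_P873659 the log2 signals in EV total RNA were 5.98 in Cy3 and 5.41 in Cy5, and in EV IP RNA 5.86 and 5.12. In sponge total RNA they were 5.65 and 5.79, and in sponge IP RNA 6.24 and 5.77. In sponge cells the signals of total and IP RNA overlapped with those of EV cells. In EV cells IP/T was 0.867, with 0.551 and 1.36 in the dye orientations, and in sponge cells 1.22, with 1.08 and 1.37. The log2 change of IP/T was 0.49, but it was 0.98 in one dye orientation and 0.00 in the other. The Cy3 labellings alone gave 0.71 and the Cy5 labellings alone 0.27, and normexp gave -0.01 with loess and 0.03 with quantile normalization.

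The mean log2 change of IP/T of the 3 MALAT1 probes thus lay between 0.46 and 1.44, but under normexp that of both dim probes was near 0, while A_24_P829261 kept 0.36 and 0.40. They read 1 transcript in the same 4 RNA samples and are not replicates of the sponge. In EV cells A_23_P21143 lay below 0.5 and the other probes nearer to 1. That value rests on undetected Cy5 signals, as its log2 IP/T of -1.42 was -0.71 from the Cy3 labellings alone and -0.12 and -0.16 under normexp.

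**Figure D3:**
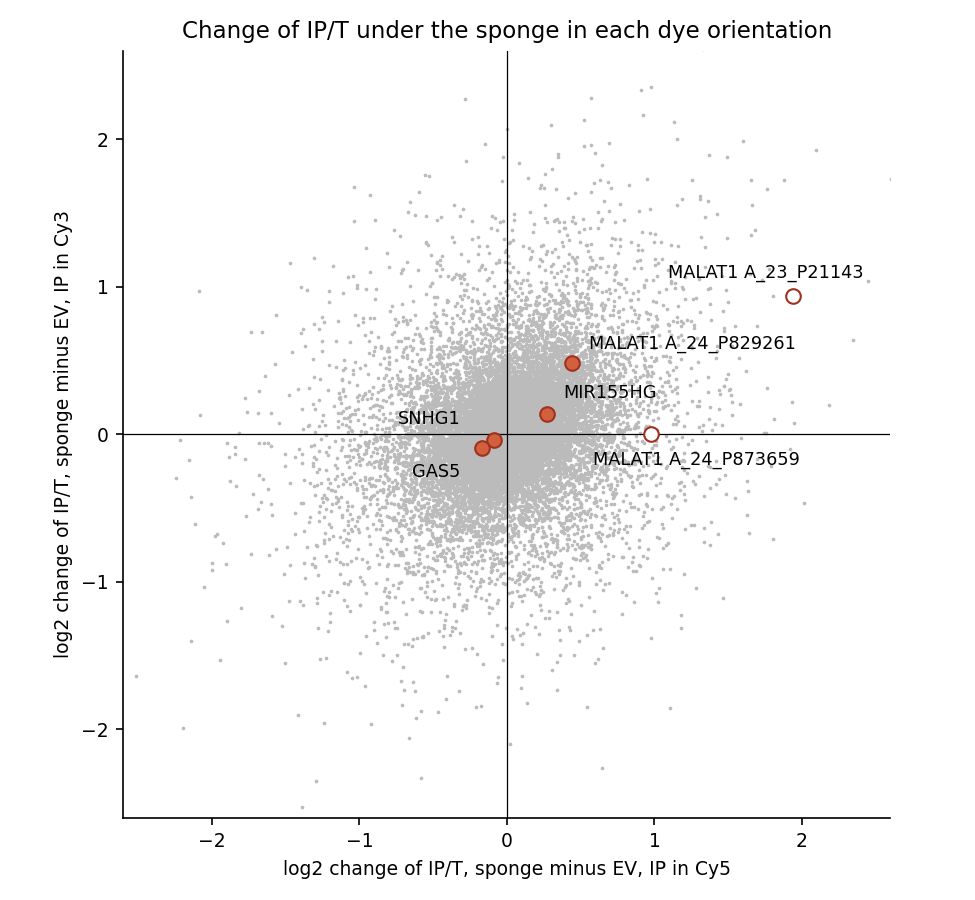
Log2 change of IP/T under the sponge (miR-155-sp minus EV) with the IP RNA in Cy5 (x axis) and in Cy3 (y axis), for all retained probes in gray (3 lie outside the axes) and for the 6 retained member probes, open where only the Cy3 labellings were well above background. The MALAT1 probe A_24_P829261 lay at 0.44 and 0.48, whereas A_24_P873659 lay on the horizontal axis.

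Over the 6 probes, 1 had an IP/T changed at least 2-fold by the sponge, in either direction, against 1.45% of all retained probes, and that was the dim MALAT1 probe A_23_P21143. No probe had a total RNA signal changed at least 2-fold, where 0.363% of all retained probes had. The IP signal changed at least 2-fold for 1 probe, A_23_P21143 again, against 0.234%. As given above, the Cy3 labellings did not bear out a 2-fold difference for it. The MALAT1 probes A_24_P829261 and A_23_P21143 and that of MIR155HG had a higher IP/T in sponge cells in both dye orientations. MIR155HG changed sign between dyes, however. The probes of GAS5 and SNHG1 had a lower IP/T in both orientations. For SNHG1 the log2 change kept its sign in 5 of 8 alternative settings, with values between -0.09 and 0.07. A_24_P873659 was higher in one orientation and at 0.00 in the other. Of the 17912 retained probes, 5483 (30.6%) were higher in both orientations and 5432 were lower in both. Either direction was thus common among all probes.

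Ordered by IP/T in EV cells over the probes detected in every channel, SNHG1 stood first at 2.23, then MALAT1 at 0.818, GAS5 at 0.788 and MIR155HG at 0.426. MALAT1 and GAS5 did not differ beyond the spread between dye orientations, and the steps from SNHG1 to MALAT1 and from GAS5 to MIR155HG were larger than that spread. Under normexp the step from GAS5 to MIR155HG was smaller. Their log2 IP/T in EV cells was then -0.22 and -0.50 with loess, and -0.26 and -0.68 with quantile normalization. In sponge cells the order was the same, with 2.14, 1.13, 0.720 and 0.491. There the orientations of MALAT1, 0.933 and 1.36, lay above those of GAS5, 0.571 and 0.909.

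Other hosts of snoRNAs and of microRNAs give the setting for these values. Of 19 other noncoding snoRNA hosts listed, 3 were on the array under a matched accession, and all were retained. Their log2 IP/T in EV and in sponge cells was -0.28 and -0.70 for SNHG10, -0.63 and -0.82 for SNHG5, and -0.74 and -0.66 for SNHG11. All 3 thus lay below 1 in both populations, as GAS5 did, and none reached the IP/T of 2 that SNHG1 passed.

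Of 20 other noncoding microRNA hosts listed, 1 was on the array, H19, an imprinted fetal RNA. It was well above background in 7 channels, and its IP/T was 5.19 with the empty vector and 8.47 with the sponge. Its log2 IP/T was 2.69 and 2.06 in the dye orientations in EV cells, and 3.46 and 2.70 in sponge cells. In contrast to MIR155HG, this noncoding host was therefore enriched in the IP fraction in both populations and both dye orientations.

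Protein-coding genes with a microRNA in an intron or in the transcript were represented by 36 genes and 55 probes, of which 41 probes of 25 genes were retained. With the empty vector 8 of these 41 (19.5%, against 14.8% of all retained probes) reached an IP/T of 2 and 2 (4.88%, against 12.9%) lay at or below 0.5, with a median log2 IP/T of -0.02. The highest log2 values were those of IGF2, a growth factor, at 3.11, PANK3, a pantothenate kinase, at 2.89, and CHM, a Rab escort protein, at 2.83. Other probes of the same genes gave 2.33, 2.52 and 2.54, and the second IGF2 probe and both CHM probes passed background in 6 channels. The lowest were those of COPZ1, a coatomer subunit, at -1.19, TLN2, a talin, at -1.18, and HUWE1, a ubiquitin ligase, with an IP/T of 0.502. Other probes of TLN2 and HUWE1 gave IP/T between 0.507 and 0.530, but the other COPZ1 probe, A_24_P389959, gave 0.832. A sponge change of IP/T of at least 2-fold was found for 2 of the 41 probes, against 1.45% of all retained probes, and these are named here after their values were seen. That of LPP, A_24_P114551, was higher by 1.26 on the log2 scale and was well above background in 4 channels, while the other LPP probe, A_23_P251118, detected in 5 channels, did not bear this out, with a log2 change of -0.0027. That of SMC4, A_23_P91900, dropped by 1.098 and was well above background in 7 channels. Most of both changes lay in total RNA, at a log2 change of -1.06 for A_24_P114551 and 0.79 for A_23_P91900. Their IP signals changed by 0.20 and -0.31 in the same order.

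Of other well-known long noncoding RNAs, 32 were listed and 3 were on the array with 6 probes, of which 2 were retained. Log2 IP/T in EV and sponge cells was -0.82 and -0.75 for DLEU1, the neighbour of DLEU2, and -0.08 and -0.09 for the imprinted MEG3. The MEG3 value changed sign between dye orientations in both populations, with 0.45 and -0.62 in EV cells.

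By RefSeq type, 49 genes with 62 probes were long noncoding RNAs, of which 33 probes were above background in no channel and 18 probes of 16 genes were retained. Without the members, 55 probes left 12 retained, with a median log2 IP/T of -0.49 in EV cells, against -0.18 over the 12908 retained probes of protein-coding genes. Of these 12 probes 2 reached an IP/T of 2, those of H19 and of MCM3AP-AS1, an antisense RNA, at 3.18. Another MCM3AP-AS1 probe, A_23_P256694, gave 1.67 and was well above background in 7 channels but was not retained. The value of HAR1A, at 0.391, was the 1 at or below 0.5. Of the protein-coding probes 15.9% reached an IP/T of 2 and 9.85% had one of at most 0.5. No probe of the other long noncoding RNAs had an IP/T changed at least 2-fold by the sponge.

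**Figure D4:**
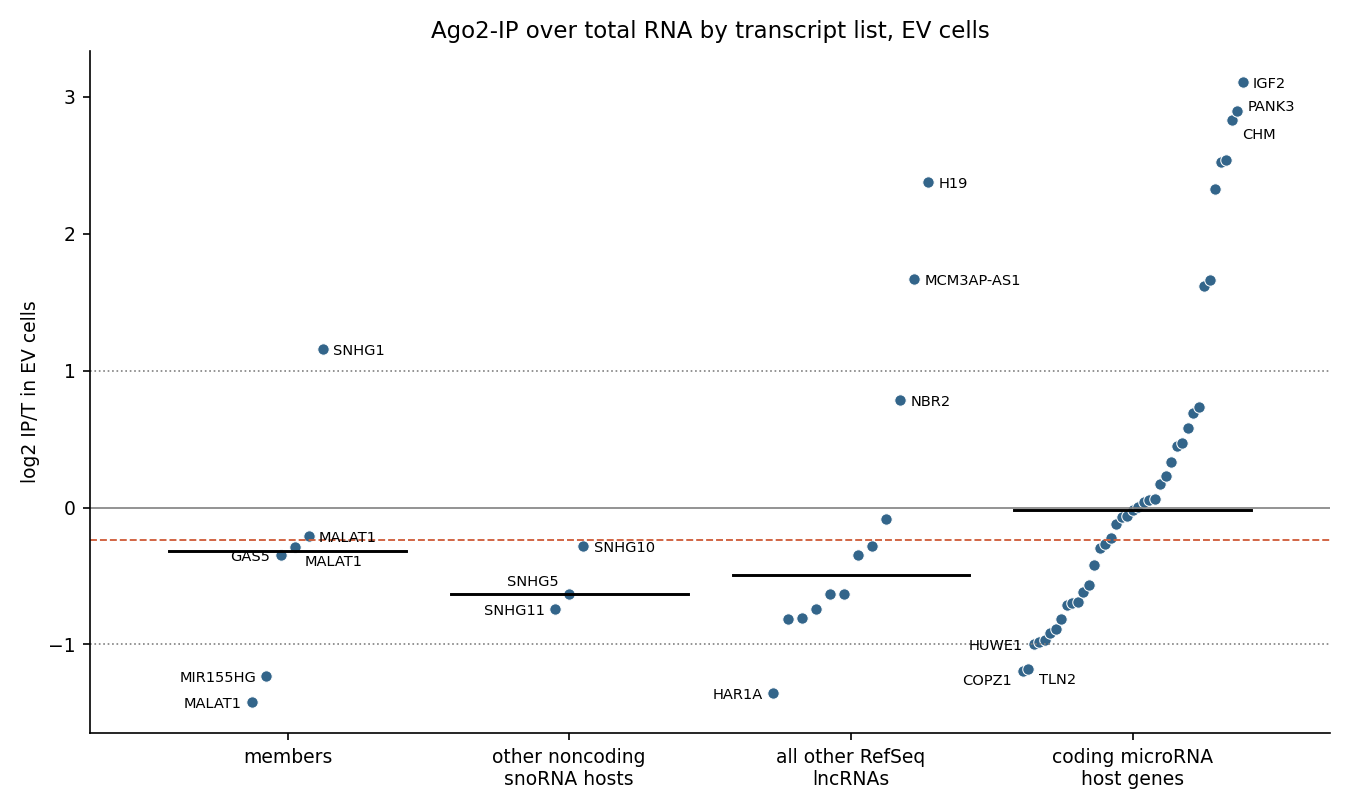
Log2 IP/T in EV cells (y axis) of each retained probe, in rising order within each list, for the member transcripts, other noncoding snoRNA hosts, all other RefSeq long noncoding RNAs and coding microRNA host genes, with a black line at the median of each list, a dashed line at the median of all retained probes (-0.24) and dotted lines at IP/T of 0.5 and 2. SNHG10, SNHG5 and SNHG11 also count among the other long noncoding RNAs, and all 3 lay below 0, whereas IGF2, PANK3 and CHM lay above 2 on the log2 scale.

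The named genes whose signals over the 4 samples were most like those of each transcript were found by Euclidean distance. It was taken between log2 profiles, each centered on its mean. The pool was 10070 retained probes of other named genes that passed background in each of the 8 channels. Whether such nearness is unusual was not tested. For MIR155HG the nearest genes were CCDC86, a nucleolar protein, at a distance of 0.020 and CAPS at 0.035. For SNHG1 they were VPS36, an endosomal sorting subunit, at 0.016 and SDHD, a subunit of succinate dehydrogenase, at 0.038. For GAS5 they were RGS10, a regulator of G protein signaling, at 0.022 and PACC1, a chloride channel, at 0.031. For the MALAT1 probe A_24_P829261 they were PDK2, a mitochondrial kinase, at 0.041 and KCNA1, a potassium channel, at 0.041.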

How the data were processed

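Total RNA and Ago2-IP RNA of EV- and miR-155 sponge-transduced KM-H2 cells were grouped by the labels. The deposited intensity of each spot is the processed signal of Feature Extraction, Agilent's image analysis software (version 10.7.3.1 per the file headers, 10.5.1.1 per the labels), which subtracts background and normalizes dyes. Flags deposited beside them mark spots well above background, saturated or outlying. The authors also deposited log2 values, quantile-normalized and filtered, which were used as an alternative. Labelling used about 100 ng of RNA.

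Outlier spots (74 to 100 per channel) were left out, spots of a probe were averaged, and log2 processed signals were quantile-normalized over 8 channels (40981 probes). The retention filter is given in the text. The mean of both labellings was taken, and log2 IP/T is the difference between IP and total. Such ratios are relative to all probes and are compressed or inflated near background. Probes were named by accession through a RefSeq table (GRCh38.p14, 23958 probes matched). Members and lists were chosen with earlier results of these data known. All probes of members were named, and of other lists up to 3 genes with the highest and the lowest IP/T in EV cells, with a second probe where a gene had one. Genes with similar profiles were the nearest 2 for each member. Alternatives were other normalizations and filters, the deposited log2 values, and single dyes or orientations. The calculation was tested on simulated data. Python 3.11.15, numpy 2.4.6, pandas 2.3.3, matplotlib 3.10.9, R 4.3.3 and limma 3.58.1 were used.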

Additional observations from a re-analysis of the deposited data

How the results depend on the processing

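The count of member probes enriched at least 2-fold in the IP fraction of EV cells was 1 and that with total RNA changed at least 2-fold was 0 under all alternatives. The count at or below 0.5 in EV cells, 2 as reported, was 0 with normexp and loess, 0 with normexp and quantile normalization, 1 in the values deposited by the authors and 1 among probes that passed background in each of 8 channels. The count at or below 0.5 in sponge cells, 1 as reported, was 0 under both normexp settings and 0 with IP RNA in Cy5 alone, and the count of at least 2 there, also 1, was 0 with IP RNA in Cy5 alone. The counts of IP/T and of IP RNA changed at least 2-fold, both 1, were 0 under both normexp settings, in the deposited values, among probes that passed background in each of 8 channels and with IP RNA in Cy3 alone. With one dye left out, the count at or below 0.5 was between 1 and 2 in EV cells and between 0 and 1 in sponge cells, that of at least 2 in sponge cells between 0 and 1, and those of IP/T and of IP RNA changed between 0 and 1. The causes were not tested. Of 230 values of single probes over these settings, 209 kept their sign and 49 moved by more than the spread between labellings. The single dyes or orientations that gave this spread are among the 230 and could not move by more than it. The count of 49 is therefore a low one. The changes of sign were in the dim MALAT1 probes, IP/T of A_24_P829261 in sponge cells, the change of IP/T of MIR155HG and the changes of IP/T and IP RNA of SNHG1. The deposited values hold 4 of the 6 retained member probes. No paired analysis was possible because the labellings that share a number are technical and no test was made. Signal over background limits the 2 dim MALAT1 probes, whose Cy5 signals were not well above background.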
